A study of Saccharomyces cerevisiae with 6 samples.

Results

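The genes described here are 37 regulators of the G1/S transition and components of DNA replication in Saccharomyces cerevisiae, chosen by name: 6 transcription factors and regulators of G1/S, 2 enzymes of deoxynucleotide supply, 2 checkpoint kinases, 10 genes of origins and the replicative helicase, 5 polymerase and primase genes, 3 genes of the sliding clamp and its alternative loaders, 3 genes of the single-strand binding protein, 3 genes of fragment processing and mismatch repair, and 3 cohesin genes. All 37 matched 1 probe set each, among 5449 genes measured. RNA came from cells labelled BY4741, a haploid laboratory strain, that were grown in YPD (rich medium with glucose) and treated at an OD600 of 0.2 for 3 hours. There were 3 groups of 2 Affymetrix arrays: the solvent DMSO at 1%, rapamycin at 200 nM, and CID 3528206, a compound named by a code, at 20 µM. Rapamycin inhibits TOR complex 1, the kinase complex through which yeast matches growth to nutrients, and the compound was set beside it. The sources used here do not say whether DMSO was also present with the 2 agents, and their concentrations differ. The labels name duplicates without stating separate cultures, so p-values cover only the spread between these arrays.

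Budding yeast commits to a new division late in G1. The factors SBF (Swi4 with Swi6) and MBF (Mbp1 with Swi6) then switch on a wave of genes, SBF being held back until then by Whi5 and MBF being shut off afterwards by Nrm1. Many genes for building deoxynucleotides, copying and ligating DNA and holding sister chromatids together belong to this wave. The RNA of such genes is high in late G1 and early S phase and lower in the rest of the cycle. In an unsynchronised culture, a lower share of cells in late G1 and S phase and less RNA per such cell cannot be told apart.

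Values are log2 RMA values, on which the median of all genes lay between 10.08 and 10.11 in the 6 arrays. All 37 genes had a mean above the background, the 95th percentile of probe sets for another yeast, Schizosaccharomyces pombe, which averaged 4.32; the lowest single value was 6.21 for WHI5. Replicate arrays differed by a standard deviation over the 37 genes of 0.118 for DMSO, 0.0908 for rapamycin and 0.251 for CID 3528206. CID 3528206 replicate 1 stood apart, since 7 control genes measured at both ends of their transcript gave a 3' minus 5' difference of 1.69 log2 units there and of 0.91 to 1.14 in the other 5 arrays. RAD27 (0.63) and WHI5 (0.50) were higher in CID 3528206 replicate 2 than in replicate 1, while ORC1 (-0.53) and RNR1 (-0.40) were lower. Results without this array are given for some of the genes that it changed, and a gene without such a value is not thereby unaffected. The closing values include a fit with the 3' minus 5' difference as a covariate. The markers of mating type went against the label BY4741, a strain of a cells that lacks HIS3, LEU2, MET17 and URA3. In the DMSO arrays, 5 genes of alpha cells lay between 10.90 and 13.47, 7 genes of a cells between 4.89 and 7.63, and the 4 deleted genes between 11.15 and 12.11. The log2 of the summed signal of the alpha cell genes was 14.67 and 14.79 after DMSO, 14.13 and 13.99 after rapamycin and 13.83 and 13.81 after CID 3528206. For the a cell genes it was 9.48 and 9.45, 10.10 and 10.25, and 9.91 and 10.07 in that order. For the 4 deleted genes it was 13.85 and 13.91, 13.13 and 13.20, and 13.22 and 13.29. After rapamycin limma called 3 of 5 alpha cell genes lower and 4 of 7 a cell genes higher, and after CID 3528206 all 5 lower and 5 of 7 higher. Of the 4 deleted genes it called 3 lower after rapamycin and all 4 lower after CID 3528206. Of all genes, 26.2% were called lower and 26.5% higher after rapamycin, and 24.4% and 26.1% after CID 3528206. Their part in the results was not tested, and the strain is given here as labelled.

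After rapamycin, RNA of the replication genes was lower more often than higher. A difference was called where the limma p, adjusted by Benjamini-Hochberg over all 5449 genes, was under 0.05. By that rule 14 of the 37 genes fell and 1, IRR1, rose, while 22 did not pass the test. Of all genes, 52.7% were called in this comparison, 26.2% lower and 26.5% higher, against 37.8% and 2.7% of the 37. The 2 falls beyond 2-fold were those of CDC9, the DNA ligase of replication, and TOS4, which acts at G1/S promoters. The median log2 difference of the 37 genes was -0.21, beside -0.02 over all genes. Both rapamycin arrays lay below both DMSO arrays for 23 of the 37 (62.2%) and above them for 5 (13.5%). Among all genes the groups did not overlap for 84.9%, with rapamycin below for 44.2% and above for 40.7%. Of the 15 calls, 7 held when each of the 4 arrays compared was left out in turn: TOS4, CDC9, POL30, MCD1, RFA2, DUN1 and IRR1. Without any single one of those arrays the count was 8, with 7 lower and 1 higher. With the 4 arrays of the comparison alone, 22 of the 37 were called, 21 lower and 1 higher, and all 15 calls were kept. In that fit 67.9% of all genes were called. The arrays of the other treatment entered the main test of rapamycin against DMSO only through the pooled spread. Of the 22 genes that did not pass, 11 passed under at least 1 of the 18 alternatives.

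After CID 3528206, 10 of the 37 genes fell, 5 rose and 22 did not pass. Of all genes, 50.5% were called here, 24.4% lower and 26.1% higher, against 27.0% and 13.5% of the 37. The genes that rose were IRR1, MSH6, POL12, POL2 and PRI2, the last 3 encoding DNA polymerase or primase subunits. TOS4 fell beyond 2-fold. The median log2 difference was -0.04, beside -0.01 over all genes. Both CID 3528206 arrays lay below both DMSO arrays for 14 of the 37 (37.8%) and above them for 6 (16.2%). Among all genes the groups did not overlap for 75.8%, below for 38.6% and above for 37.2%. Calls held without each of the 4 arrays in turn for 8 genes: TOS4, POL30, NRM1, MCD1, RFA2, IRR1, MSH6 and POL12. The median log2 difference of the 37 was -0.11 without CID 3528206 replicate 1 and 0.03 without its replicate 2. It was -0.01 and -0.06 without DMSO replicate 1 and 2. With the 4 arrays of the comparison alone, 7 fell and 4 rose, while 41.8% of all genes were called. The calls of ORC6, PRI2, RAD27 and CDC9 also ended without either rapamycin array, which entered only through the pooled spread, and with the 4 arrays of the comparison alone. Of the 22 genes that did not pass, 8 passed under at least 1 alternative. Both comparisons use the same 2 DMSO arrays, so their values are set side by side and not tested for likeness. Errors after ± are limma standard errors with n = 2 arrays per group. They rest on 1 spread for the 3 groups, while the CID 3528206 replicates lay further apart than the others.

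**Figure D1:**
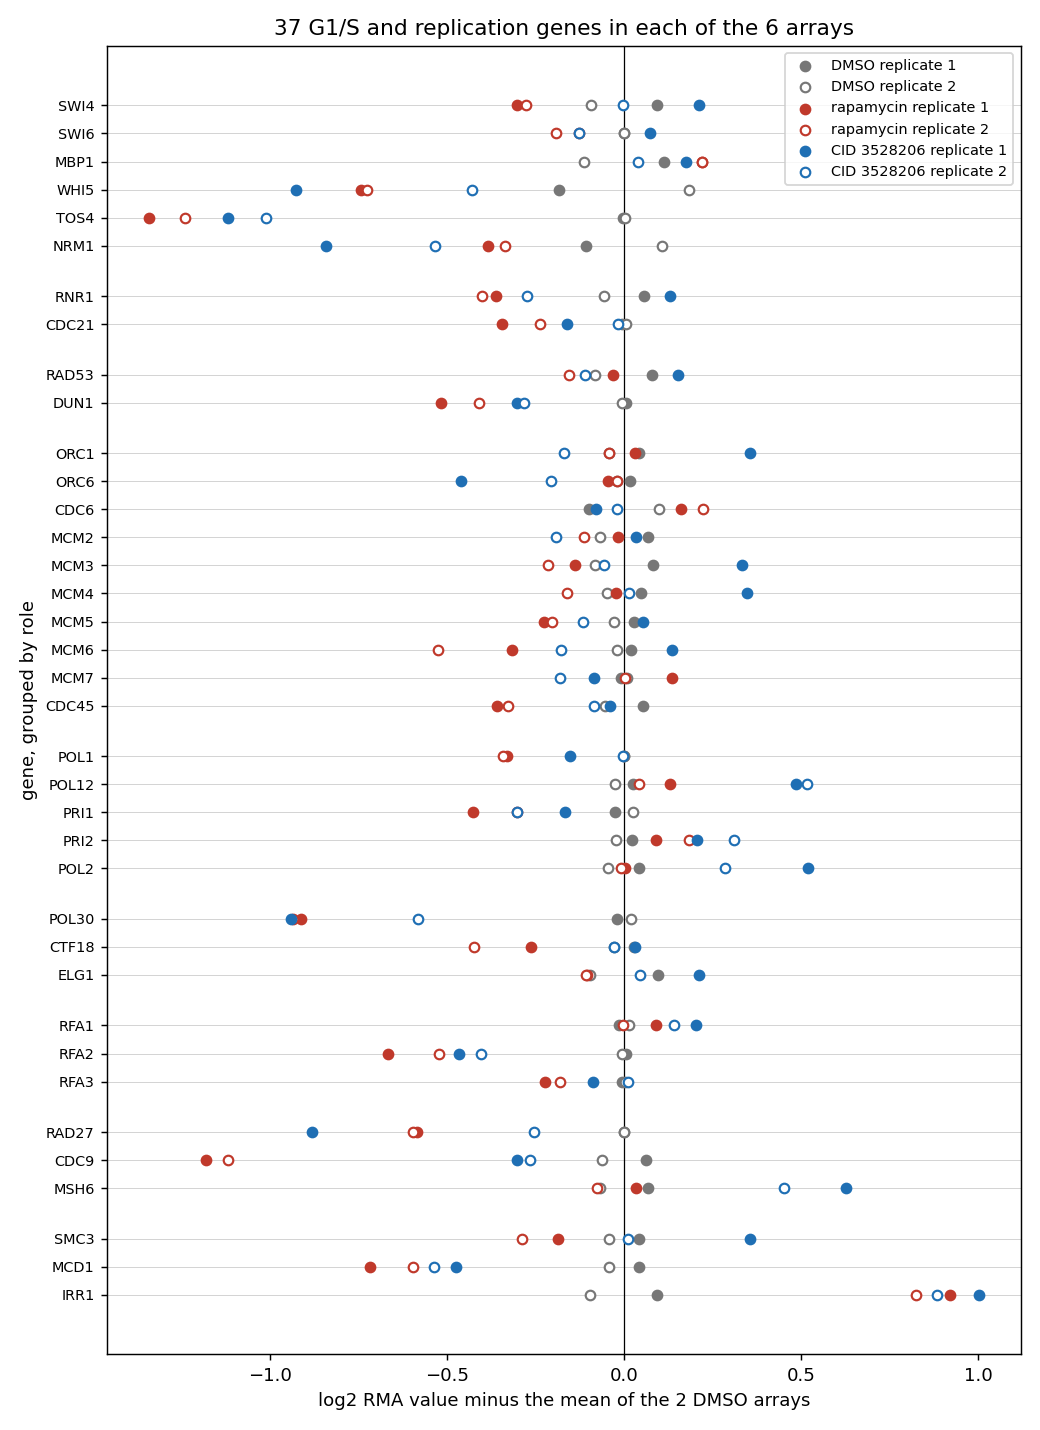
Each row is 1 of the 37 genes, grouped by role, and each point is 1 array, as the log2 RMA value minus the mean of the 2 DMSO arrays (filled for replicate 1, open for replicate 2). TOS4, CDC9 and POL30 reach the lowest rapamycin points and IRR1 the highest, and the 2 CID 3528206 points of RAD27 lie 0.63 apart.

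Among the G1/S regulators, TOS4 and WHI5 fell after both treatments and NRM1 after CID 3528206, and SWI4, SWI6 and MBP1 did not pass the test against DMSO. TOS4, which encodes a chromatin-binding protein that is itself a target of the wave, had values of 9.14 and 9.15 in DMSO replicates 1 and 2, 7.80 and 7.90 after rapamycin, and 8.02 and 8.13 after CID 3528206. All 4 treated arrays lay well below the DMSO arrays, the rapamycin arrays lowest, and no groups overlapped. It fell 2.44-fold after rapamycin (-1.29 ± 0.08, limma adjusted p = 7.08e-05) and 2.09-fold after CID 3528206 (-1.06 ± 0.08, limma adjusted p = 0.000189). NRM1, the co-repressor of MBF, read 9.01 and 9.23 after DMSO, 8.73 and 8.78 after rapamycin, and 8.28 and 8.58 after CID 3528206. The CID 3528206 arrays were the lowest, and neither treated group overlapped with DMSO. NRM1 fell after CID 3528206 (-0.69 ± 0.12, limma adjusted p = 0.00572) and differed by -0.36 ± 0.12 after rapamycin, which did not pass (limma adjusted p = 0.0517). The rapamycin difference of NRM1 passed under 9 of 17 alternatives (limma adjusted p 0.00447 to 0.254), quantile normalization and the 4 arrays alone among them.

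WHI5, the repressor of SBF, had values of 6.95 and 7.32 after DMSO, 6.39 and 6.41 after rapamycin, and 6.21 and 6.70 after CID 3528206. Its replicates differed more than those of TOS4 in the DMSO and CID 3528206 groups, yet neither treated group overlapped with DMSO. WHI5 fell after rapamycin (-0.73 ± 0.19, limma adjusted p = 0.0188) and after CID 3528206 (-0.68 ± 0.19, limma adjusted p = 0.026). The rapamycin call ended without DMSO replicate 2 or either rapamycin array (limma adjusted p over the alternatives 0.000881 to 0.101, highest without DMSO replicate 2). That for CID 3528206 ended without DMSO replicate 2 (0.00212 to 0.137, highest there), and the difference was -0.43 without CID 3528206 replicate 1.

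SWI4 encodes the DNA-binding subunit of SBF. Its values were 8.28 and 8.09 after DMSO, 7.88 and 7.91 after rapamycin and 8.40 and 8.18 after CID 3528206. The rapamycin arrays lay below all others, while CID 3528206 and DMSO overlapped. SWI4 differed from DMSO by -0.29 ± 0.10 after rapamycin (limma adjusted p = 0.0555) and 0.11 ± 0.10 after CID 3528206 (limma adjusted p = 0.423). MBP1, the DNA-binding subunit of MBF, read 8.85 and 8.62 after DMSO, 8.96 in both rapamycin arrays, and 8.91 and 8.78 after CID 3528206, with differences of 0.22 ± 0.10 and 0.11 ± 0.10. SWI6, the subunit shared by both factors, read 9.67 in both DMSO arrays, 9.54 and 9.48 after rapamycin, and 9.74 and 9.54 after CID 3528206. Its differences were -0.16 ± 0.09 and -0.03 ± 0.09, and neither gene passed (limma adjusted p 0.102 to 0.81). After rapamycin, SWI4 passed under 6 of 17 alternatives (log2 difference -0.43 to -0.20). SWI6 passed under 4 of 18 (-0.20 to -0.13) and MBP1 under 1 of 17 (0.11 to 0.33).

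In deoxynucleotide supply, CDC21 fell after rapamycin and RNR1 did not pass in either comparison. CDC21, the thymidylate synthase gene, lay at 10.05 and 10.07 after DMSO, 9.71 and 9.82 after rapamycin, and 9.90 and 10.04 after CID 3528206. Both rapamycin arrays lay below the other 4. The fall was -0.29 ± 0.08 after rapamycin (limma adjusted p = 0.0251), and the difference after CID 3528206 was -0.09 ± 0.08. The rapamycin call ended without any single one of the 4 arrays (limma adjusted p over the alternatives 0.00399 to 0.164, highest without rapamycin replicate 1). RNR1, the large subunit of ribonucleotide reductase, had values of 11.48 and 11.37 after DMSO, 11.06 and 11.02 after rapamycin, and 11.56 and 11.15 after CID 3528206. The CID 3528206 replicates lay on either side of both DMSO arrays. RNR1 differed by -0.38 ± 0.14 after rapamycin (limma adjusted p = 0.0565) and -0.07 ± 0.14 after CID 3528206 (limma adjusted p = 0.682). The rapamycin difference passed under 7 of 18 alternatives (log2 difference -0.44 to -0.32). The CID 3528206 difference was -0.27 and passed without CID 3528206 replicate 1, was 0.13 without its replicate 2, and also passed with the covariate (limma adjusted p over the alternatives 0.00702 to 0.96).

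Of the 2 checkpoint kinase genes, DUN1 fell after both treatments. DUN1, a kinase that raises deoxynucleotide supply after DNA damage, read 9.42 and 9.41 after DMSO, 8.89 and 9.00 after rapamycin, and 9.11 and 9.13 after CID 3528206. The 3 groups did not overlap. Differences were -0.46 ± 0.07 (limma adjusted p = 0.00253) and -0.29 ± 0.07 (limma adjusted p = 0.0155). The second call ended without either DMSO array (limma adjusted p over the alternatives 0.0118 to 0.0967, highest without DMSO replicate 1). RAD53, the kinase upstream of DUN1, lay between 7.71 and 8.02 in all arrays, with the groups overlapping, and differed by -0.09 ± 0.11 and 0.02 ± 0.11.

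Of the 10 genes of origins and the replicative helicase, CDC45 and MCM6 fell after rapamycin and ORC6 after CID 3528206, and the others did not pass in either comparison. Of all genes, 52.7% and 50.5% were called in these comparisons. CDC45, which joins the loaded helicase to activate it, had values of 8.75 and 8.65 after DMSO, 8.34 and 8.37 after rapamycin, and 8.66 and 8.62 after CID 3528206. The rapamycin arrays lay below the other 4, and CDC45 fell by 0.34 ± 0.07 (limma adjusted p = 0.00838). That call ended without DMSO replicate 1 or either rapamycin array (limma adjusted p over the alternatives 0.00194 to 0.0777, highest without DMSO replicate 1). ORC6, a subunit of the origin recognition complex, read 8.39 and 8.36 after DMSO, 8.33 and 8.36 after rapamycin, and 7.92 and 8.17 after CID 3528206. Only the CID 3528206 arrays lay apart, and there ORC6 fell (-0.33 ± 0.10, limma adjusted p = 0.0304). The call ended without either DMSO array (0.00145 to 0.14, highest without DMSO replicate 1), and the difference without CID 3528206 replicate 1 was -0.20. ORC1, an ATP-binding subunit of the same complex, differed by -0.01 ± 0.17 after rapamycin and 0.09 ± 0.17 after CID 3528206. The latter was -0.17 without CID 3528206 replicate 1 and 0.36, which passed, without its replicate 2. CDC6, the loader that brings the helicase to origins, differed by 0.19 ± 0.09 and -0.05 ± 0.09.

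The 6 MCM genes encode the ring of the helicase. Their differences ran from -0.42 to 0.07 after rapamycin and from -0.13 to 0.18 after CID 3528206. MCM6 fell after rapamycin, from 9.36 and 9.32 to 9.02 and 8.82 (-0.42 ± 0.12, limma adjusted p = 0.031). It read 9.48 and 9.16 after CID 3528206, on either side of DMSO. The call ended without any single one of the 4 arrays (limma adjusted p over the alternatives 0.00117 to 0.167, highest without rapamycin replicate 2). MCM5 differed by -0.21 ± 0.08 after rapamycin (limma adjusted p = 0.0666) and MCM3 by -0.18 ± 0.14. MCM2 (-0.07 ± 0.10), MCM4 (-0.09 ± 0.12) and MCM7 (0.07 ± 0.08) had overlapping arrays. After CID 3528206, MCM4 differed by 0.18 ± 0.12, MCM3 by 0.14 ± 0.14 and MCM7 by -0.13 ± 0.08, and the remaining 3 lay between -0.08 and -0.02. Without CID 3528206 replicate 2, MCM3 was 0.33 and MCM4 0.35, and both passed, while without its replicate 1 they were -0.06 and 0.01.

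The subunits of DNA polymerase alpha and primase, which start every new strand, did not move as a block. POL1, the catalytic subunit, read 10.04 and 10.05 after DMSO, 9.71 and 9.70 after rapamycin, and 9.89 and 10.04 after CID 3528206. POL12, the regulatory subunit, read 9.05 and 9.00 after DMSO, 9.15 and 9.07 after rapamycin, and 9.51 and 9.54 after CID 3528206. POL1 was thus lowest after rapamycin and POL12 highest after CID 3528206. POL1 fell after rapamycin (-0.34 ± 0.08, limma adjusted p = 0.0114) and differed by -0.08 ± 0.08 after CID 3528206. POL12 differed by 0.09 ± 0.07 after rapamycin and rose 1.42-fold after CID 3528206 (0.50 ± 0.07, limma adjusted p = 0.00208). In the primase, the catalytic subunit gene PRI1 fell after rapamycin, from 9.26 and 9.31 to 8.86 and 8.99 (-0.36 ± 0.08, limma adjusted p = 0.0118). PRI1 read 9.12 and 8.99 after CID 3528206, below both DMSO arrays, and did not pass (-0.23 ± 0.08, limma adjusted p = 0.0555), though it passed at -0.30 without CID 3528206 replicate 1. PRI2, the large subunit gene, read 9.81 and 9.77 after DMSO, 9.88 and 9.98 after rapamycin, and 10.00 and 10.10 after CID 3528206. It differed by 0.14 ± 0.07 after rapamycin and rose after CID 3528206 (0.26 ± 0.07, limma adjusted p = 0.0291). Over the alternatives the limma adjusted p was 0.00155 to 0.0767 for POL1 and 0.00291 to 0.0942 for PRI1 after rapamycin, and 0.00807 to 0.165 for PRI2 after CID 3528206. The highest values came without rapamycin replicate 2, rapamycin replicate 1 and DMSO replicate 2. The POL1 call ended without any single one of the 4 arrays, that of PRI1 without rapamycin replicate 1 or a DMSO array, and that of PRI2 without either DMSO array.

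POL2 encodes the catalytic subunit of DNA polymerase epsilon, the main enzyme of the leading strand. It read 9.86 and 9.77 after DMSO, 9.82 and 9.81 after rapamycin, and 10.34 and 10.10 after CID 3528206. Both CID 3528206 arrays lay above the other 4, and POL2 rose there (0.40 ± 0.10, limma adjusted p = 0.0149) while the rapamycin difference was 0.00 ± 0.10. The call ended without either DMSO array (limma adjusted p over the alternatives 0.00124 to 0.0995, highest without DMSO replicate 2). Without CID 3528206 replicate 1 the difference was 0.28.

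The sliding clamp gene POL30 fell after both treatments. POL30 encodes PCNA, the ring that holds polymerases on DNA. It read 12.06 and 12.10 after DMSO, 11.17 and 11.15 after rapamycin, and 11.14 and 11.50 after CID 3528206. All 4 treated arrays lay below the DMSO arrays, CID 3528206 replicate 2 nearest to them. The fall was 1.90-fold after rapamycin (-0.92 ± 0.12, limma adjusted p = 0.00148) and 1.69-fold after CID 3528206 (-0.76 ± 0.12, limma adjusted p = 0.00354). CTF18, a subunit of an alternative clamp loader that acts in sister chromatid cohesion, read 8.83 and 8.78 after DMSO, 8.54 and 8.38 after rapamycin, and 8.84 and 8.78 after CID 3528206. The rapamycin arrays lay below the others, and CTF18 fell there (-0.34 ± 0.08, limma adjusted p = 0.014) while the CID 3528206 difference was 0.00 ± 0.08. The rapamycin call was lost when rapamycin replicate 2 or a DMSO array was left out (limma adjusted p over the alternatives 0.0036 to 0.106, highest without rapamycin replicate 2). ELG1, which takes part in unloading PCNA, differed by -0.11 ± 0.10 and 0.13 ± 0.10.

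Of the 3 subunits of replication protein A, which coats single-stranded DNA, the middle subunit gene RFA2 fell after both treatments. RFA2 read 11.26 and 11.25 after DMSO, 10.59 and 10.73 after rapamycin, and 10.79 and 10.85 after CID 3528206. The treated arrays all lay below DMSO, with differences of -0.59 ± 0.08 (limma adjusted p = 0.00142) and -0.43 ± 0.08 (limma adjusted p = 0.00515). RFA1, the large subunit gene, differed by 0.04 ± 0.07 and 0.17 ± 0.07, the latter passing at 0.20 without CID 3528206 replicate 2. RFA3, the small subunit gene, differed by -0.20 ± 0.07 after rapamycin (limma adjusted p = 0.0506) and -0.04 ± 0.07 after CID 3528206. Its rapamycin difference passed under 10 of 18 alternatives (log2 difference -0.22 to -0.18).

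CDC9 and MSH6 differed most between the treatments. CDC9, which seals the nicks between fragments of the lagging strand, read 9.77 and 9.65 after DMSO, 8.53 and 8.59 after rapamycin, and 9.41 and 9.44 after CID 3528206. The 3 groups were clear of each other, with rapamycin at the bottom. CDC9 fell 2.22-fold after rapamycin (-1.15 ± 0.07, limma adjusted p = 0.000101) and 1.22-fold after CID 3528206 (-0.28 ± 0.07, limma adjusted p = 0.0213). The second call ended without either DMSO array (limma adjusted p over the alternatives 0.0146 to 0.154, highest without DMSO replicate 1). MSH6, a mismatch recognition protein, read 9.76 and 9.62 after DMSO, 9.73 and 9.62 after rapamycin, and 10.32 and 10.14 after CID 3528206. Rapamycin and DMSO overlapped and CID 3528206 lay above both. MSH6 rose 1.45-fold after CID 3528206 (0.54 ± 0.09, limma adjusted p = 0.00497) and differed by -0.02 ± 0.09 after rapamycin. RAD27, the nuclease that trims the flaps before CDC9 acts, read 9.67 in both DMSO arrays, 9.08 and 9.07 after rapamycin, and 8.78 and 9.41 after CID 3528206. Both treated groups lay below DMSO, the CID 3528206 replicates far from each other. It fell by 0.59 ± 0.19 (limma adjusted p = 0.0412) and by 0.57 ± 0.19 (limma adjusted p = 0.0483). The rapamycin call ended without any single one of the 4 arrays (limma adjusted p over the alternatives 0.000166 to 0.138, highest without rapamycin replicate 2), that for CID 3528206 without either DMSO array (0.000138 to 0.153, highest without DMSO replicate 2). Both calls also ended with all probe sets tested, and that for CID 3528206 ended with the 3' minus 5' covariate. The rapamycin difference stayed between -0.60 and -0.58 without any single one of its 4 arrays, and its call held with those 4 arrays alone. The CID 3528206 arrays, which lay 0.63 apart, entered the rapamycin comparison only through the pooled spread. The CID 3528206 difference was -0.25 without its replicate 1 and -0.88 without its replicate 2.

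Of the 3 cohesin genes, MCD1 fell and IRR1 rose after both treatments. MCD1, the subunit that closes the cohesin ring and is cut at anaphase, read 9.65 and 9.57 after DMSO, 8.89 and 9.02 after rapamycin, and 9.14 and 9.07 after CID 3528206. IRR1, a subunit that binds the ring, read 9.58 and 9.39 after DMSO, 10.40 and 10.31 after rapamycin, and 10.49 and 10.37 after CID 3528206. For both genes all 4 treated arrays lay on 1 side of DMSO, below it for MCD1 and above it for IRR1. MCD1 fell after rapamycin (-0.66 ± 0.08, limma adjusted p = 0.00101) and after CID 3528206 (-0.51 ± 0.08, limma adjusted p = 0.00307). IRR1 rose 1.83-fold after rapamycin (0.87 ± 0.09, limma adjusted p = 0.00068) and 1.92-fold after CID 3528206 (0.94 ± 0.09, limma adjusted p = 0.000634). SMC3, 1 of the 2 long arms of the ring, differed by -0.24 ± 0.12 and 0.18 ± 0.12 and did not pass. After CID 3528206 it was 0.01 without replicate 1 and 0.36, which passed, without replicate 2 (limma adjusted p over the alternatives 0.00829 to 0.953).

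**Figure D2:**
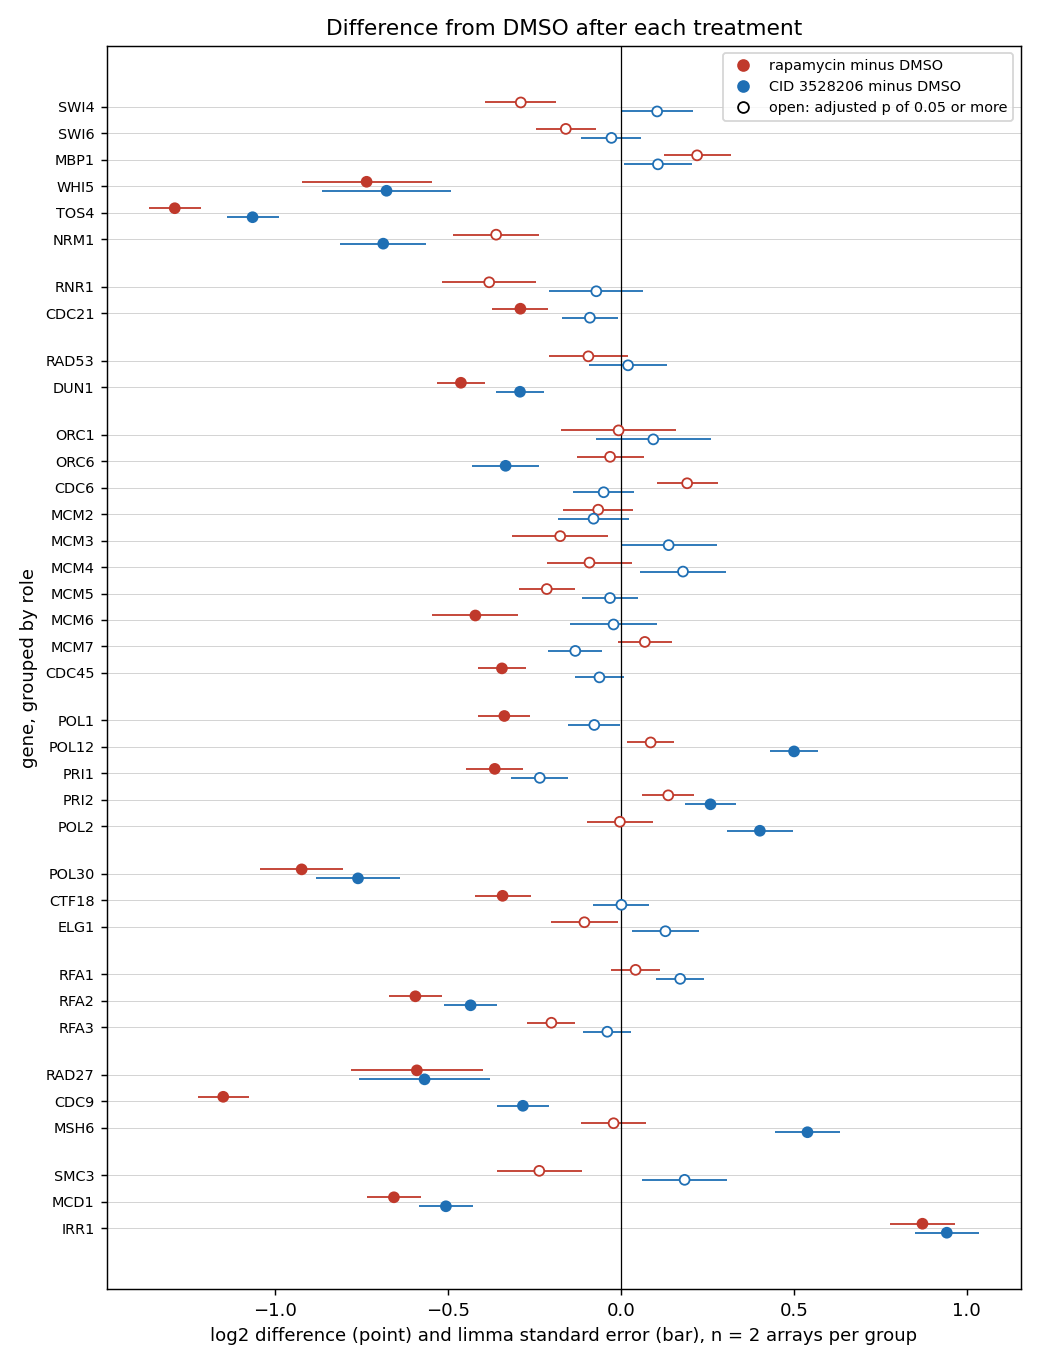
Points are log2 differences from DMSO after rapamycin (red) and CID 3528206 (blue), bars are limma standard errors with n = 2 arrays per group, and open points have an adjusted p of 0.05 or more. Subunits of polymerase alpha and primase, of replication protein A and of cohesin lie on different sides of 0 or at different distances from it, for instance RFA2 at -0.59 and RFA1 at 0.04 after rapamycin.

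Set directly against each other, the treatments differed in 7 of the 37 genes, with CID 3528206 higher in each: CDC9, MSH6, POL12, POL2, SWI4, CTF18 and CDC45. Of all genes, 18.8% were called in this comparison, 9.32% higher and 9.43% lower, against 18.9% of the 37 higher. Limma called 0 of the 37 lower after CID 3528206, and at an unadjusted p under 0.05 it counted 14 higher and 4 lower. The median log2 difference was 0.16, beside 0.00 over all genes, and 31 of the 37 lay above 0. Both CID 3528206 arrays lay above both rapamycin arrays for 24 of the 37 (64.9%) and below them for 5 (13.5%). Among all genes the groups did not overlap for 63.5%, above for 32.2% and below for 31.3%. The difference was 1.82-fold for CDC9 (0.87 ± 0.07, limma adjusted p = 0.00265) and 1.47-fold for MSH6 (0.56 ± 0.09, limma adjusted p = 0.0154). It was 0.41 ± 0.07 for POL12 (limma adjusted p = 0.015), 0.40 ± 0.10 for POL2 (limma adjusted p = 0.0355) and 0.39 ± 0.10 for SWI4 (limma adjusted p = 0.0469). CTF18 differed by 0.34 ± 0.08 (limma adjusted p = 0.0356) and CDC45 by 0.28 ± 0.07 (limma adjusted p = 0.0423). NRM1 (-0.33 ± 0.12) and ORC6 (-0.30 ± 0.10), the lowest of the 37, did not pass, but did at -0.48 and -0.43 without CID 3528206 replicate 2. Of the 30 genes that did not pass, 18 passed under at least 1 alternative.

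The call for CDC9 held without each of the 4 arrays compared. Those for MSH6, POL12, POL2 and CTF18 ended without either rapamycin array, and those for SWI4 and CDC45 without either rapamycin array or CID 3528206 replicate 1. Over the alternatives the limma adjusted p ran from 0.00317 to 0.126 for MSH6, 0.00694 to 0.132 for POL12, 0.00304 to 0.197 for POL2 and 0.007 to 0.212 for SWI4. For CTF18 it ran from 0.0155 to 0.236 and for CDC45 from 0.0177 to 0.223. These highest values came without rapamycin replicate 2, for CDC45 without rapamycin replicate 1. The DMSO arrays entered this comparison only through the pooled spread. With the 4 arrays of the comparison alone, 2 of the 37 genes were called, beside 7.29% of all genes. The median log2 difference of the 37 was 0.17 and 0.20 without rapamycin replicate 1 and 2. It was 0.17 and 0.19 without CID 3528206 replicate 1 and 2. RAD27, which differed by 0.02 ± 0.19, passed in opposite directions, at 0.34 without CID 3528206 replicate 1 and -0.29 without its replicate 2.

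**Figure D3:**
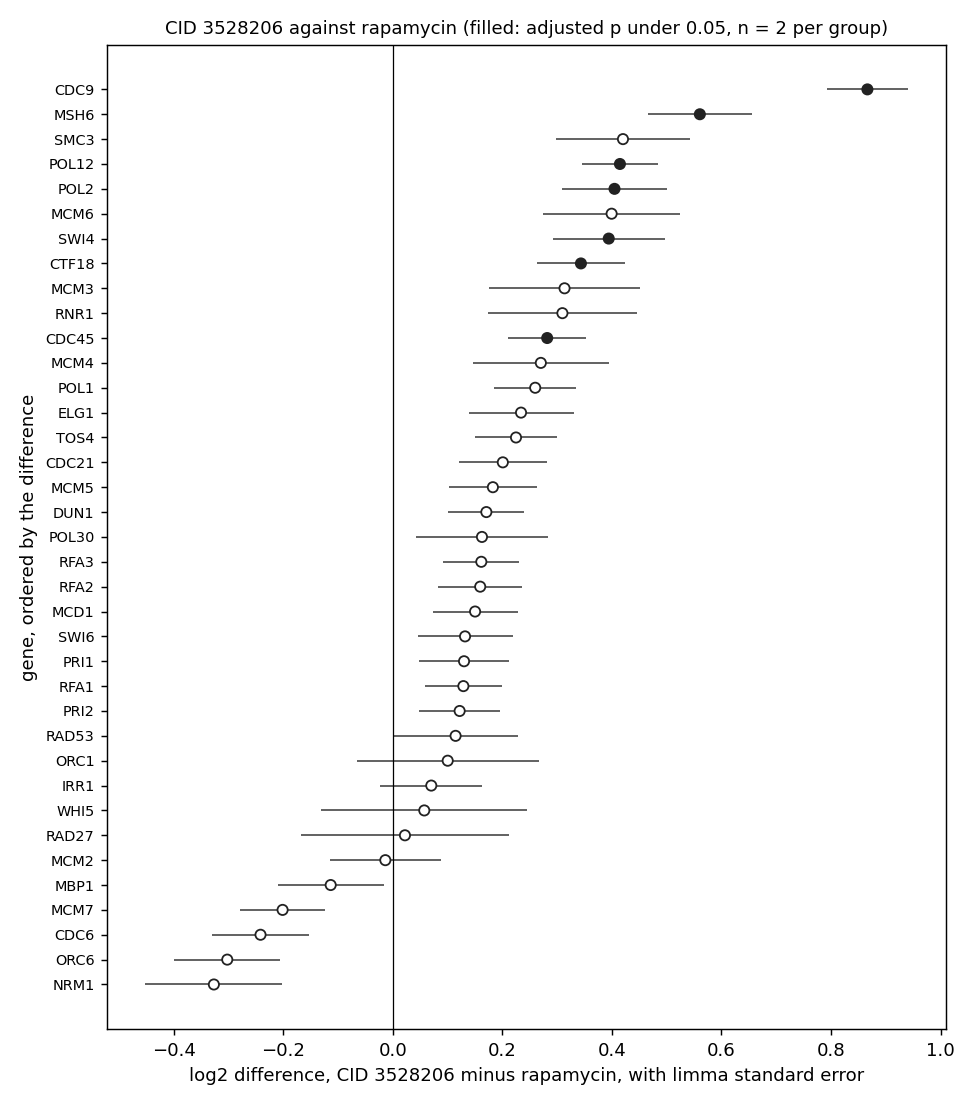
Each point is the log2 difference between CID 3528206 and rapamycin for 1 of the 37 genes, with its limma standard error, ordered by the difference; filled points have an adjusted p under 0.05 (n = 2 arrays per group). CDC9 stands at 0.87, and 31 of the 37 genes lie to the right of 0.

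**Figure D4:**
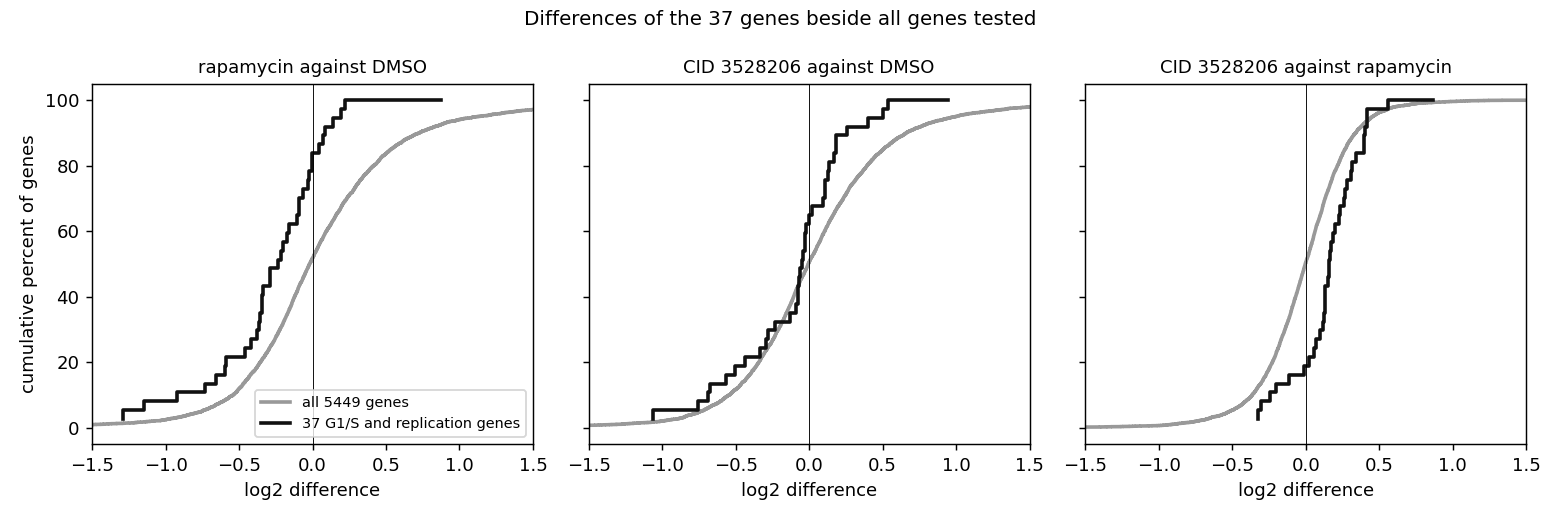
Curves give the cumulative percent of genes at or below each log2 difference, for the 37 genes (black) and all 5449 genes tested (grey), in the 3 comparisons; the axis is limited to 1.5 log2 units on each side. The median of the 37 lies at -0.21, -0.04 and 0.16 from left to right, beside medians of all genes of -0.02, -0.01 and 0.00.

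Further genes of the same pathways were described as lists. Of 38 further genes of the fork and of origins, 15 fell, 5 rose and 18 did not pass after rapamycin, with a median of -0.14. After CID 3528206, 10 fell, 7 rose and 21 did not pass, with a median of -0.13. The list's share called was 52.6% and 44.7%, beside 52.7% and 50.5% of all genes. The largest falls after rapamycin were in RFC5, a clamp loader subunit (-0.88 ± 0.09), RNH201, the catalytic subunit of RNase H2 (-0.80 ± 0.09), and TOF1, a fork protection protein (-0.76 ± 0.10). The largest rises were in ORC3 of the origin recognition complex (0.91 ± 0.07), DPB2 of polymerase epsilon (0.52 ± 0.08) and TAH11, the yeast Cdt1 (0.48 ± 0.07). After CID 3528206, RNH201 (-0.85 ± 0.09), RFC5 (-0.64 ± 0.09) and CTF8, a partner of CTF18 (-0.56 ± 0.07), fell most. DPB2 (0.77 ± 0.08), the nuclease and helicase gene DNA2 (0.67 ± 0.10) and the initiation factor gene DPB11 (0.51 ± 0.07) rose most. Between the treatments, 4 of the 38 were higher after CID 3528206 and 1 lower. That is 13.2% of the list called, beside 18.8% of all genes, of which 9.32% were higher and 9.43% lower. RFC1 (0.50 ± 0.12), TOF1 (0.46 ± 0.10) and the kinase gene CDC7 (0.44 ± 0.08) differed most upward, and ORC3 was the lower gene (-0.48 ± 0.07). These 4 calls ended without either rapamycin array, that of RFC1 also without CID 3528206 replicate 1. Over the alternatives the limma adjusted p ran from 0.0085 to 0.224 for RFC1, 0.00301 to 0.184 for TOF1, 0.0057 to 0.128 for CDC7 and 0.00338 to 0.103 for ORC3.

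In the other genes of deoxynucleotide supply, 5 of 10 rose, 2 fell and 3 did not pass after rapamycin, with a median of 0.29. After CID 3528206, 4 rose, 3 fell and 3 did not pass, with a median of 0.22. That is 70.0% of the list called in each, beside 52.7% and 50.5% of all genes. RNR3, an alternative large subunit of ribonucleotide reductase known for its induction by DNA damage, read 8.38 and 8.30 after DMSO, 9.07 and 8.98 after rapamycin, and 9.66 and 9.03 after CID 3528206. It rose by 0.69 ± 0.19 (limma adjusted p = 0.0253) and 1.01 ± 0.19 (limma adjusted p = 0.00703). All 4 treated arrays lay above DMSO, and CID 3528206 replicate 1 was the highest. RNR2, a small subunit gene of ribonucleotide reductase, rose by 0.69 ± 0.13 and 0.39 ± 0.13. HUG1, an inhibitor of that enzyme that is also induced by damage, rose by 0.74 ± 0.08 and 0.71 ± 0.08. DUT1, the dUTPase (-0.98 ± 0.10 and -0.78 ± 0.10), and CDC8, the thymidylate kinase (-0.60 ± 0.06 and -0.39 ± 0.06), fell after both treatments. DFR1, the dihydrofolate reductase, differed by 0.02 ± 0.07 after rapamycin and fell after CID 3528206 (-0.54 ± 0.07). Between the treatments DFR1 was the 1 gene called (-0.56 ± 0.07, limma adjusted p = 0.00644), 10% of the list beside 18.8% of all genes. The rapamycin call for RNR3 ended without any single one of the 4 arrays (limma adjusted p over the alternatives 0.000159 to 0.114, highest without rapamycin replicate 1). The CID 3528206 call for RNR2 ended without either DMSO array or CID 3528206 replicate 2 (0.000457 to 0.189, highest without DMSO replicate 1), and the difference was 0.20 without CID 3528206 replicate 2. That for DFR1 between the treatments ended without either rapamycin array (0.00268 to 0.0812, highest without rapamycin replicate 2).

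In the further lists the calls went in both directions. Of 8 further cohesin genes, 1 (SCC4) rose and 1 (ECO1) fell after rapamycin, while 3 (SCC4, RAD61 and PDS5) rose and 1 (ECO1) fell after CID 3528206, which is 25% and 50% of the list called, beside 52.7% and 50.5% of all genes. SCC4, a subunit of the cohesin loader, rose by 0.86 ± 0.07 and 0.79 ± 0.07, and ECO1, which acetylates SMC3, fell by 0.38 ± 0.12 and 0.51 ± 0.12. RAD61, which takes part in releasing cohesin, differed by 0.04 ± 0.08 after rapamycin and rose by 0.49 ± 0.08 after CID 3528206. The ECO1 calls ended without any single one of the 4 arrays for rapamycin and without DMSO replicate 2 for CID 3528206 (limma adjusted p over the alternatives 0.00221 to 0.186 and 0.00155 to 0.0853). The PDS5 call ended under 7 alternatives, without either DMSO array and with the 4 arrays alone among them (0.0119 to 0.153). Of the 16 listed genes of checkpoints, mismatch repair and recombination, 13 were measured, and 3 are not analysed here. After each treatment 3 (RAD24, MEC1 and RAD9) rose and 1 (CHK1) fell, 30.8% of those measured. RAD24, the loader of the checkpoint clamp, rose by 0.91 ± 0.07 and 0.69 ± 0.07. MEC1, the kinase upstream of RAD53, rose by 0.37 ± 0.11 and 0.55 ± 0.11, RAD9, an adaptor between them, by 0.32 ± 0.07 and 0.43 ± 0.07, and CHK1 fell by 0.34 ± 0.08 and 0.30 ± 0.08. The rapamycin calls for MEC1 and RAD9 ended without any single one of the 4 arrays (limma adjusted p over the alternatives 0.00189 to 0.158 and 0.00173 to 0.0812, both highest without DMSO replicate 2). That for CHK1 ended without DMSO replicate 2 or either rapamycin array (0.00255 to 0.113). After CID 3528206 the MEC1 call ended without DMSO replicate 2 (0.000442 to 0.0642) and the CHK1 call without either DMSO array (0.00883 to 0.171).

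Among 23 targets and regulators of G1/S outside replication, 8 fell, 7 rose and 8 did not pass after rapamycin. After CID 3528206, 9 fell, 5 rose and 9 did not pass. That is 65.2% and 60.9% of the list called, beside 52.7% and 50.5% of all genes. The share called lower was 34.8% and 39.1%, beside 26.2% and 24.4% of all genes. The share called higher was 30.4% and 21.7%, beside 26.5% and 26.1%. CLB6, an S-phase cyclin gene of the same wave, read 8.42 and 8.74 after DMSO, 7.42 and 7.49 after rapamycin, and 7.20 and 7.27 after CID 3528206. It fell 2.18-fold (-1.12 ± 0.11) and 2.54-fold (-1.35 ± 0.11). CLB5, another S-phase cyclin gene, fell by 0.54 ± 0.11 after rapamycin and differed by -0.11 ± 0.11 after CID 3528206. The cyclin genes CLN1 (0.50 ± 0.06) and PCL2 (0.74 ± 0.09) rose after rapamycin. After CID 3528206 they differed by 0.07 ± 0.06, which did not pass, and 0.44 ± 0.09, which did. XBP1, a repressor known from starved and stressed cells, read 6.65 and 6.41 after DMSO, 8.69 and 8.64 after rapamycin, and 8.06 and 8.21 after CID 3528206. XBP1 rose 4.40-fold (2.14 ± 0.10) and 3.04-fold (1.60 ± 0.10), and GIC2, an effector of Cdc42 in budding, rose 2.77-fold and 2.58-fold. SIC1, the inhibitor of S-phase cyclin kinase, differed by -0.04 ± 0.12 after rapamycin and fell by 0.80 ± 0.12 after CID 3528206. For CLB6 and XBP1 no treated array overlapped with DMSO. Between the treatments, 1 of the 23 was higher after CID 3528206, CLB5 (0.43 ± 0.11), and 4 were lower. The lower genes were SIC1 (-0.76 ± 0.12), XBP1 (-0.53 ± 0.10), CLN1 (-0.43 ± 0.06) and GIC1 (-0.38 ± 0.08). That is 4.35% of the list higher and 17.4% lower, beside 9.32% and 9.43% of all genes. Each of these calls ended without either rapamycin array.

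**Figure D5:**
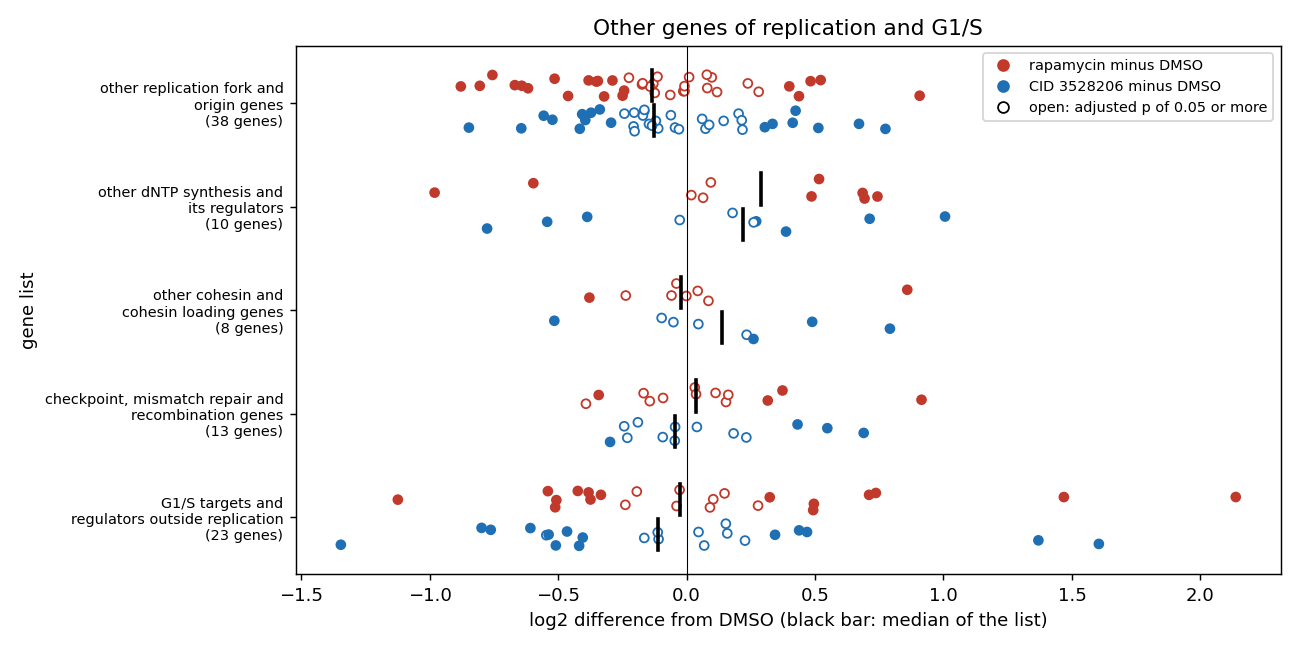
Points are log2 differences from DMSO of the genes of 5 further lists after rapamycin (red) and CID 3528206 (blue), open where the adjusted p is 0.05 or more, with the list median as a black bar. The medians of the fork and origin list lie at -0.14 and -0.13, those of deoxynucleotide supply at 0.29 and 0.22, and XBP1 lies furthest to the right, at 2.14 and 1.60.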

How the data were processed

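The deposited values are log2 values that the authors made with RMA, per the submitters' processing notes; RMA corrects background, normalizes quantiles across arrays and gives 1 value per probe set. The sources used here give no version or settings for it. Of 10928 probe sets, 5498 named 1 S. cerevisiae gene in the platform's probe table, giving 5449 genes; 12 symbols were updated through assembly R64, used for names only. The probe set with the highest mean was kept for a gene with several. Group means over the 6 arrays were estimated by lmFit and eBayes of limma 3.58.1 (R 4.3.3), with 3 residual degrees of freedom and two-sided p-values adjusted over all genes by Benjamini-Hochberg. On simulated data with 5449 genes, 100 genes were changed by 0.5 log2 units and 100 by 1. Of those changed by 0.5, 55%, 56% and 57% were called (rapamycin, CID 3528206, and between them). Of those changed by 1, 86%, 87% and 81% were called, with 4.73%, 5.30% and 8.61% false among all calls. All other genes were left unchanged there, and the noise of a gene had 1 spread for the 3 groups. In the data, 52.7%, 50.5% and 18.8% of genes were called, and the CID 3528206 replicates lay further apart than the others. The simulated rates may therefore not hold for the data. The number of arrays limits the precision. The 37 genes, the further lists, the tests and the 18 alternatives were chosen with earlier results of these data known. Array by array values are given for up to 8 called genes with the largest difference in each direction and comparison and for the G1/S regulators, and for others beside them; further lists name up to 3 called genes in each direction and comparison. Arrays left out in turn leave a lone array that is assumed to vary like the other groups.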

Additional observations from a re-analysis of the deposited data

How the results depend on the processing

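The count of the 37 genes called was computed under 18 alternatives. For rapamycin against DMSO it was 15, and from 8 to 22 with 1 array left out, 7 without the third of the genes lowest in mean (18 of the 37 tested), 8 at an adjusted p under 0.01 and 26 with the 3' minus 5' control difference as a covariate. For CID 3528206 against DMSO it was 15, and from 8 to 20 with 1 array left out, 6 without the third of the genes lowest in mean and 8 at an adjusted p under 0.01. Between the treatments it was 7, and from 1 to 19 with 1 array left out, 4 without the third lowest in mean, 2 with all probe sets tested, 2 with the 4 arrays of the comparison alone, 1 at an adjusted p under 0.01 and 16 with the covariate. The replicate numbers as a block, which the labels do not tie to a shared culture or day, gave 19, 15 and 11, with SWI4, NRM1, RNR1 and RFA3 added after rapamycin and NRM1, MCM6, POL1 and SMC3 between the treatments; replicate differences correlated between groups by 0.25 to 0.43. The remaining alternatives left each of the 3 counts within 1.5 times. The share of all genes called also moved. After rapamycin it was 52.7%, and 34.4% at an adjusted p under 0.01, 67.9% with the 4 arrays alone and 71.4% with the covariate. After CID 3528206 it was 50.5%, and 31.3%, 41.8% and 60.2% under those settings. Between the treatments it was 18.8%, and 3.93%, 7.29% and 34.6%. Without the genes lowest in mean it was 55.9%, 53.2% and 25.2% in the 3 comparisons. After CID 3528206, ORC1 went from 0.09, not called, to -0.18, called, with the covariate. Between the treatments, RAD27 went from 0.02, not called, to 0.34 without CID 3528206 replicate 1 and -0.29 without its replicate 2, both called. The 2 CID 3528206 replicates of RAD27 lay 0.63 apart; for ORC1 the cause was not tested.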
